A study of Mus musculus with 8 samples.

Results

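Cluster 0 is the most numerous of the 6 clusters into which the authors divided lung group 2 innate lymphoid cells (ILC2s) profiled by droplet RNA sequencing. Its members are the cells that carry cluster number 0 in the authors' cell table. It held 2289 of 9076 cells (25.22%) and 9666681 of 48468694 UMIs (unique molecular identifiers, each counting an RNA molecule captured once). Clusters 1 to 5 held 1934, 1671, 1198, 1071 and 913 cells.

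All cells came from lungs of male wild type C57BL/6 mice and were sorted as ILC2s, labelled with antibody hashtags and pooled. Intranasal dosing ran for 3 consecutive days. Hashtags 6, 7 and 8 marked IL-33 plus dopamine, hashtags 3, 4 and 5 marked IL-33 with the PBS vehicle (called IL-33 below), and hashtags 1 and 2 marked PBS without IL-33. The age of the mice and the number of mice behind a hashtag are not given in the sources used here. Each hashtag was treated as 1 replicate, so p-values measure the spread between hashtags, which may be technical, and all hashtags shared a single pooled library. Values below are UMIs per 1000000 UMIs of the same group of cells (CPM) unless another unit is named.

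ILC2s are tissue lymphocytes without rearranged antigen receptors. The epithelial alarmin IL-33 binds the receptor encoded by Il1rl1 and, through NF-kB and AP-1, drives release of the type 2 cytokines IL-5 and IL-13, with Gata3 as the lineage's main transcription factor. IL-5 sustains eosinophils, and IL-13 acts on epithelium and smooth muscle. Dopamine is a catecholamine transmitter whose D1-type receptors raise cAMP and whose D2-type receptors lower it. Drd1, a D1-type receptor gene, is not in the count table used here.

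Cluster 0 cells were the shallowest of the pool. Their median was 4082 UMIs and 1432 genes per cell, and the middle of the distribution ran between 3051 UMIs at the 10th and 5505 UMIs at the 90th percentile. Median UMIs per cell in clusters 1 to 5 were 4613, 4704, 5480, 5160 and 8142. The median percent of UMIs in mitochondrial DNA-encoded genes was 4.40% in cluster 0 and between 3.63% and 4.39% in the others. Within cluster 0, the median UMIs per cell averaged 4102 ± 366 with IL-33 plus dopamine and 4256 ± 139 with IL-33 (SD over hashtags, n = 3 each, exact two-sided permutation p = 0.6), and 3934 ± 70.0 with PBS (n = 2).

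The share of a hashtag's cells that fell in cluster 0 was 30.19%, 25.31% and 30.44% in hashtags 6, 7 and 8 (IL-33 plus dopamine), 16.09%, 24.36% and 20.65% in hashtags 3, 4 and 5 (IL-33), and 32.48% and 32.09% in hashtags 1 and 2 (PBS). The exact 95% binomial intervals (Clopper-Pearson, counting error only) spanned 22.87% to 32.86% over the 3 dopamine hashtags, 14.26% to 27.02% over the 3 IL-33 hashtags and 27.3% to 37.99% over the 2 PBS hashtags. Because Il5, a gene by which cluster 0 stood apart, itself differed by treatment, these shares are given as values, and no difference between treatments is read from them. Hashtag 1 gave the fewest cluster 0 cells and summed UMIs (101 and 404400), and hashtag 8 the most (449 and 1725530). Per cell, hashtag 8 had the lowest median in cluster 0, at 3718 UMIs, below the 3885 UMIs of hashtag 1.

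On the authors' UMAP embedding cluster 0 formed one continuous field that bordered clusters 1, 2 and 4. Of the 15 nearest neighbours of a cluster 0 cell, 85.55% on average were in cluster 0, 6.56% in cluster 4, 4.46% in cluster 1, 3.03% in cluster 2, 0.34% in cluster 5 and 0.061% in cluster 3. All 15 neighbours were in cluster 0 for 1606 cells (70.16%), called core cells below, and most neighbours were in another cluster for 314 cells (13.72%), called edge cells. As a description across 4932 genes, which are not independent, the log2(CPM + 5) profile of cluster 0 had a Pearson correlation of 0.9794 with cluster 4, 0.9781 with cluster 1, 0.9768 with cluster 2, 0.953 with cluster 5 and 0.9276 with cluster 3.

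**Figure D1:**
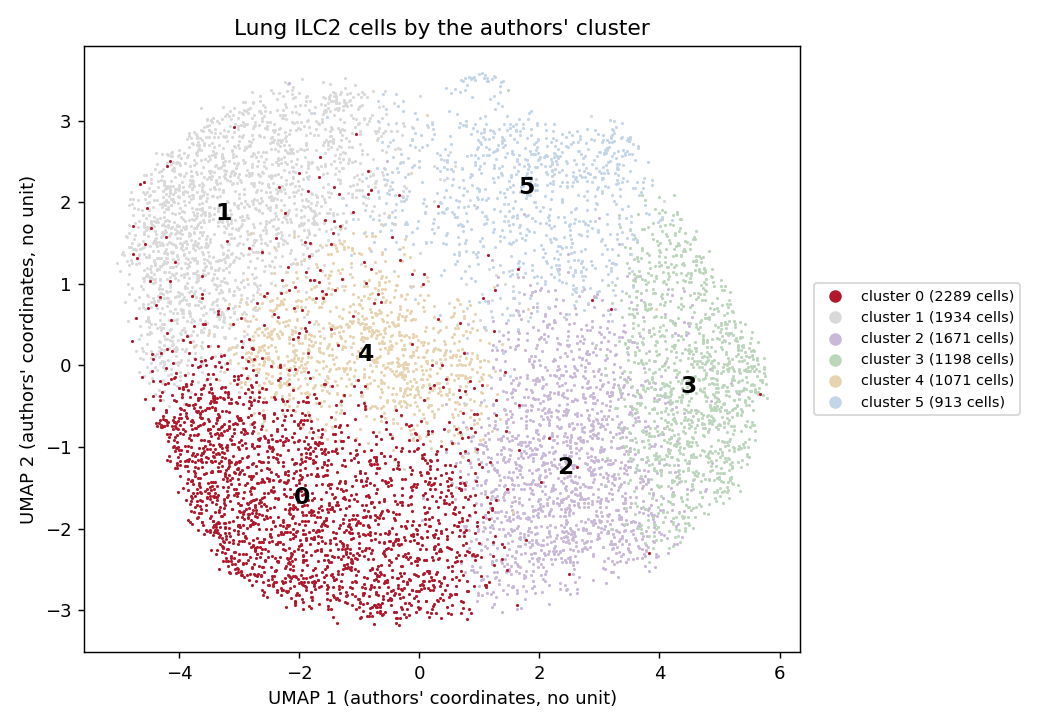
Position of each of 9076 cells on the authors' UMAP axes (no unit), with each point a cell coloured by the authors' cluster and the cluster number at its median position. The 2289 cells of cluster 0 fill the lower left, next to clusters 1, 4 and 2 and away from clusters 3 and 5.

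Cluster 0 had few genes of its own and was set apart mainly by what was low in it. Of 4731 genes with mean CPM of at least 20 in cluster 0, 1 gene (0.0211%), Fam122a, was at least 1.5-fold higher in cluster 0 than in all other cells in each of the 8 hashtags. Of 4920 genes with mean CPM of at least 20 in the other cells, 85 (1.73%) were at least 1.5-fold lower in cluster 0 in each hashtag. Without a minimum fold, 398 of 5072 genes (7.85%) were higher and 828 (16.3%) lower in cluster 0 in all 8 hashtags. These genes were used to make the clusters, so the differences between clusters are a description and carry no test. Ratios are of CPM + 5, which understates differences of low genes.

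Fam122a, an inhibitor of the phosphatase PP2A, had 100, 123 and 124 CPM in cluster 0 cells of dopamine hashtags 6, 7 and 8, 107, 115 and 116 CPM in those of IL-33 hashtags 3, 4 and 5, and 94.0 and 133 CPM in those of PBS hashtags 1 and 2. In the other cells of the same hashtags it lay between 52.9 and 78.9 CPM, so the values of cluster 0 and of the rest did not overlap. The mean log2 ratio of cluster 0 over the rest was 0.83 ± 0.08 (SD, n = 8 hashtags). By cluster, Fam122a stood at 115 CPM in cluster 0, 87.4 in cluster 1, 65.6 in cluster 2, 60.4 in cluster 4, 49.3 in cluster 5 and 32.2 in cluster 3.

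The other genes proposed as markers of cluster 0 were higher there by less. Fbxl12, a substrate receptor of an SCF ubiquitin ligase, averaged 68.4 ± 4.9 CPM in cluster 0 and 44.2 ± 5.3 CPM in the rest and was higher in 8 of 8 hashtags. Snhg12, a non-coding host transcript of small nucleolar RNAs, averaged 147 ± 12 CPM in cluster 0 and 106 ± 14 CPM in the rest, also higher in 8 of 8. Alkbh1, a dioxygenase that removes methyl groups from nucleic acids, averaged 93.7 ± 16.6 CPM in cluster 0 and 66.4 ± 8.0 CPM in the rest (SD, n = 8), higher in 7 of 8 hashtags. No one of these genes told a cell's cluster: a Fam122a UMI was found in 20.38% of cluster 0 cells and 11.47% of other cells after each cell was thinned to 2000 UMIs (34.99% and 26.77% unthinned). For Fbxl12 these shares were 12.86% and 9.01% thinned (24.73% and 21.7% unthinned), for Alkbh1 17.18% and 12.34% (29.36% and 26.52%), and for Snhg12 25.4% and 18.81% (43.95% and 41.17%). Thinning used 2287 of the 2289 cluster 0 cells and 6785 other cells.

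Among the remaining genes with the largest higher ratios, Crebzf, a bZIP transcription regulator, averaged 149 ± 8 CPM in cluster 0 and 92.8 ± 11.9 CPM in the rest. Gimap3, a lymphocyte GTPase, averaged 332 ± 82 and 215 ± 58 CPM. Klf9, a Krüppel-like transcription factor, averaged 134 ± 30 and 86.7 ± 17.9 CPM, but with 136 CPM cluster 4 was above the 128 CPM of cluster 0 (all cells summed). Pik3ip1, a membrane inhibitor of PI3 kinase, averaged 65.7 CPM in cluster 0 and 43.9 CPM in the rest, but cluster 4 had 80.1 CPM against 63.6 CPM in all cluster 0 cells summed. Cd69, an early activation antigen that also retains lymphocytes in tissue, averaged 840 ± 142 and 575 ± 81 CPM, and its low level in cluster 3 (227 CPM) contrasted with 801 CPM in cluster 2 and 854 CPM in cluster 0. Apobec3, a cytidine deaminase that restricts retroviruses, was at 252 CPM in cluster 0 but at 264 and 270 CPM in clusters 1 and 4. The ubiquitin ligase gene Herc4, the iron-sensing F-box gene Fbxl5, the cyclin gene Ccnt2, the zinc finger gene Zfp950 and Tmem273 had mean log2 ratios between 0.50 for Fbxl5 and 0.59 for Herc4. Of these, Tmem273 was at 59.7 CPM in cluster 4 and 49.7 CPM in cluster 0, and Fbxl5 at 73.1 and 71.0 CPM.

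The cytokine genes Il5 and Il13 were the genes with the lowest ratios. Il5 had 114, 106 and 103 CPM in cluster 0 cells of dopamine hashtags 6, 7 and 8, 66.5, 64.7 and 65.5 CPM in those of IL-33 hashtags 3, 4 and 5, and 109 and 101 CPM in those of PBS hashtags 1 and 2. The other cells of the same hashtags had 395 to 1013 CPM. The mean log2 ratio of cluster 0 over the rest was -2.79 ± 0.41 (SD, n = 8). Il13 averaged 68.5 ± 20.5 CPM in cluster 0 and 402 ± 63 CPM in the rest, a mean log2 ratio of -2.49. Neither gene was lowest in cluster 0: cluster 4 had 55.6 CPM of Il5 and 57.7 CPM of Il13, against 91.2 and 64.1 CPM in all cluster 0 cells summed, while cluster 3 had 2357 and 1143 CPM.

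Il5 was found in few cluster 0 cells and mostly as a single UMI. Of 2289 cells, 433 (18.92%) had an Il5 UMI, 134 had 2 or more, and the highest cell had 25. After thinning, 11.41% of cluster 0 cells and 29.21% of other cells had an Il5 UMI. For Il13 the thinned shares were 8.05% and 19.94% (13.28% and 30.62% unthinned). The pool held no cell type that should lack these transcripts, so the part of free RNA in the low values was not tested.

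The sequences around the annotated starts of Il5 and Il13, the genes furthest down, of Fam122a, which had the largest higher ratio among genes with at least 50 CPM, and of Odc1, which with Il5 passed the dopamine test below, are shown for what regulatory motifs they hold. Each runs from 250 bases before to 50 bases after the start on the strand of the gene (RefSeq, GRCm38.p6), and capitals mark motif matches.
Il5, chr11:53720544-53720843, plus strand: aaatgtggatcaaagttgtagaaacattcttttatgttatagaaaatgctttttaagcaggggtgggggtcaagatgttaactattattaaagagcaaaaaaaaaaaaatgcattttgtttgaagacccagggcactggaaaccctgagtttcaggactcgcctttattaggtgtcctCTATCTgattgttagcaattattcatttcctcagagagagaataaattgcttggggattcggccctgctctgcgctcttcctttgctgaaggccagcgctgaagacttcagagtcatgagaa
Il13, chr11:53634653-53634952, minus strand: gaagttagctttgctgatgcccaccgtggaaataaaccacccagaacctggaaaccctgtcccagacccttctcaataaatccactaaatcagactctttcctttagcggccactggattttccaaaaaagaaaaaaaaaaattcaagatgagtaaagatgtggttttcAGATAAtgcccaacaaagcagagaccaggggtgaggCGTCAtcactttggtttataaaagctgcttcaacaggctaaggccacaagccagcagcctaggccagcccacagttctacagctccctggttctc
Odc1, chr12:17544623-17544922, plus strand: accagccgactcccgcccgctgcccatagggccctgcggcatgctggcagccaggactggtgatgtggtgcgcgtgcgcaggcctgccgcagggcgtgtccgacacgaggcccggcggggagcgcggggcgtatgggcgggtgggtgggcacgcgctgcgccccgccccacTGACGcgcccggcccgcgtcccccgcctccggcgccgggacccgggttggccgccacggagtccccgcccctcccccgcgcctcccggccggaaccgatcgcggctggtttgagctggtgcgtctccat
Fam122a, chr19:24477425-24477724, minus strand: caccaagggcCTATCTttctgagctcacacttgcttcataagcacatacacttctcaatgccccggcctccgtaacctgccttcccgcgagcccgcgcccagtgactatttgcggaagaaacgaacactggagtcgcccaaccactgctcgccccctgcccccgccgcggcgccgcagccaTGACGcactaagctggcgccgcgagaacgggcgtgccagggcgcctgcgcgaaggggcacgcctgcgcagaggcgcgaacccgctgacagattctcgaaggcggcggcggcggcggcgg

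Motifs were searched on both strands: the cAMP response element TGACGTCA, its core TGACG, the AP-1 motif TGANTCA and the GATA motif (the letters GATA after A or T and before A or G). Il5 held 1 GATA match, at positions -72 to -67 from the start, and Il13 held a GATA match at -81 to -76 and a core at -45 to -41. Odc1 held a core at -79 to -75, and Fam122a a core at -69 to -65 and a GATA match at -240 to -235. Such matches are common: of 32851 promoter windows of the same length, 29.76% held the GATA motif, 20.81% the core, 20.73% the NF-kB motif, 7.81% the AP-1 motif and 1.79% the full element. GC content was 40.0% for Il5, 46.0% for Il13, 78.0% for Odc1 and 67.3% for Fam122a.

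Further genes with the largest lower ratios encode inflammatory, chromatin and chaperone proteins. Ptgs2, which encodes cyclooxygenase-2, averaged 9.27 ± 7.98 CPM in cluster 0 and 61.8 CPM in the rest. Cd83, a surface molecule of activated lymphocytes, averaged 7.31 and 58.1 CPM. Rel, the NF-kB subunit c-Rel, averaged 95.3 ± 13.8 CPM in cluster 0 and 354 ± 79 CPM in the rest, with 67.4 CPM in cluster 1, 67.9 in cluster 4 and 880 in cluster 3. The chromatin enzyme genes Dot1l, Kdm2b and Kdm6b averaged 42.6, 45.1 and 105 CPM in cluster 0 and 143, 136 and 323 CPM in the rest. These low levels were not particular to cluster 0. With all cells summed, Kdm6b was at 104 CPM in cluster 0, 50.6 in cluster 1 and 106 in cluster 4. In the same order Dot1l was at 40.55, 32.73 and 36.78 CPM, and Kdm2b at 46.45, 42.32 and 68.78 CPM. Hspa1a and Hspa1b, which encode inducible HSP70, had mean log2 ratios of -2.06 each, and cluster 4 stood highest: Hspa1a was at 17.8 CPM in cluster 0, 403 in cluster 4 and 11.1 in cluster 3. Dgat2 (triglyceride synthesis), Plaur (the urokinase receptor), Gem and Rrad (small GTPases) and Serpinb1a (a protease inhibitor) had mean log2 ratios between -1.88 and -1.42. Plaur was at 21.6 CPM in all cluster 0 cells summed, but at 6.06 in cluster 1 and 12.7 in cluster 4. Gem (44.2 CPM) and Rrad (54.6 CPM) were lower in cluster 1, at 26.2 and 32.3 CPM, and higher in cluster 4. Dgat2 and Serpinb1a were lowest in cluster 0.

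**Figure D2:**
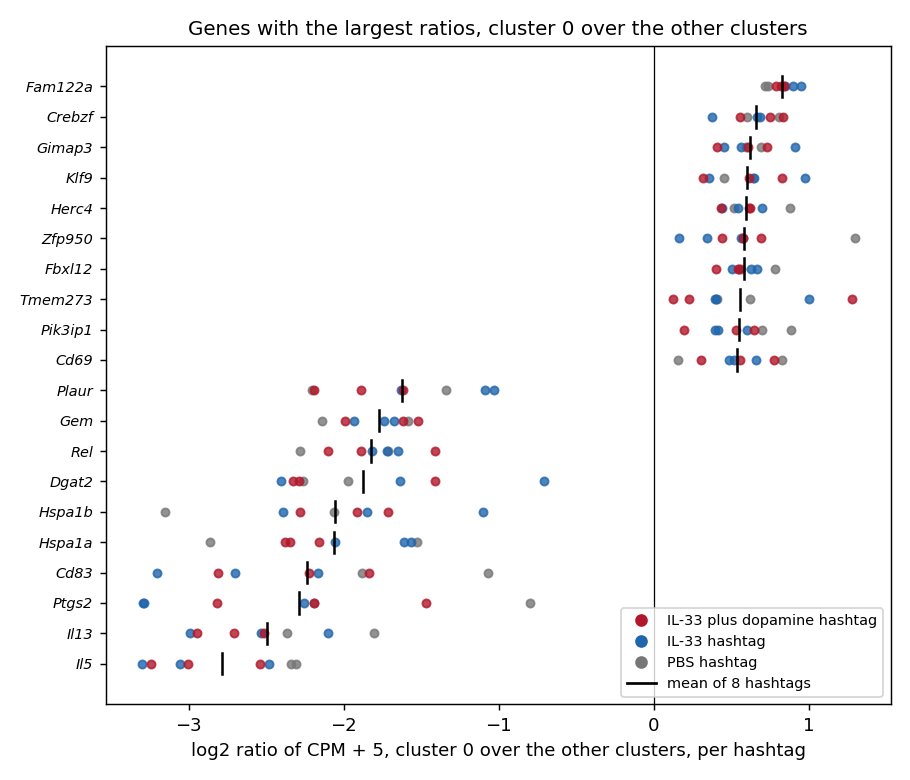
Log2 ratio of CPM + 5 (x axis) of cluster 0 over the other clusters for the 10 genes with the largest ratio in each direction (y axis), with a point per hashtag coloured by treatment and a bar at the mean of 8 hashtags. The means run between 0.83 for Fam122a and 0.54 for Cd69 on the higher side, and between -1.62 for Plaur and -2.79 for Il5 on the lower side.

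Genes that define ILC2s were detected in cluster 0, part of them at a lower level than in the rest. Gata3 averaged 519 ± 51 CPM in cluster 0 and 994 ± 162 CPM in the rest, lower in 8 of 8 hashtags, and stood at 527 CPM in cluster 0, 473 in cluster 1, 756 in cluster 4 and 1661 in cluster 3. Il1rl1, the IL-33 receptor gene, averaged 661 ± 43 CPM in cluster 0 and 792 ± 62 CPM in the rest, lower in 8 of 8. Il7r, the IL-7 receptor gene, averaged 1238 ± 87 and 1262 ± 86 CPM, a mean log2 ratio of -0.03. Klrg1, an inhibitory receptor gene, averaged 95.3 and 130 CPM, and Arg1, which encodes arginase, 186 and 280 CPM. Of 22 measured members of the ILC2 identity list, 0 were higher and 10 lower in all 8 hashtags (median log2 ratio -0.22). Over all 5072 genes, 7.85% were higher and 16.3% lower in all 8 hashtags, with a median of -0.045. The 10 lower members of the list were Gata3, Rora, Il1rl1, Il2ra, Icos, Id2, Arg1, Il18r1, Il2rg and Hlf.

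Some secreted factors other than Il5 and Il13 were also lower in cluster 0 than in the rest. Csf2, which encodes GM-CSF, averaged 553 ± 86 CPM in cluster 0 and 1458 ± 246 CPM in the rest, and Areg, the repair factor amphiregulin, 721 ± 98 and 1531 ± 293 CPM. Il4 averaged 33.7 ± 10.6 and 47.2 CPM and was higher in cluster 0 in 2 of 8 hashtags. Of 17 secreted factors with at least 20 CPM, 7 were lower in all 8 hashtags (Il5, Il13, Csf2, Areg, Cxcl2, Ltb and Tgfb1) and 0 higher. Over all genes with that level 16.3% were lower and 7.85% higher. With all cells summed, Areg was at 723 CPM in cluster 0, above the 420 and 580 CPM of clusters 1 and 4. Csf2, at 545 CPM, was above the 414 CPM of cluster 4 and below the 662 CPM of cluster 1.

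The working description of cluster 0 as resting-like was checked on activation and quiescence genes: activation genes were low, and quiescence genes stood near the shares over all genes. Of 22 activation genes, 15 were lower in cluster 0 in all 8 hashtags, among them Il2ra, Icos, Tnfrsf9, Irf4, Batf, Nfil3, Odc1 and Cd44, and 1, Cd69, was higher (median log2 ratio -0.71). Of 19 NF-kB response genes, 15 were lower and 0 higher (median -0.74), including Nfkb1, Nfkb2, Rel, Rela, Nfkbia, Birc3 and Icam1. Of 16 cAMP and CREB response genes, 11 were lower, such as Nr4a1, Nr4a3, Crem, Pde4b and Rgs2, and 1, the phosphodiesterase gene Pde3b, was higher (median -0.73). Of 22 immediate early genes, 14 were lower and 0 higher (median -0.42). Of 18 resting and quiescence genes, only Pik3ip1 was higher, while Klf2, Klf4, Btg2 and Tsc22d3 were lower, where 7.85% of all genes with that level were higher and 16.3% lower. The median of that list was -0.06 with CPM and 0.04 when CPM was computed without ribosomal and mitochondrial genes, so its sign depended on the scaling. Against single clusters 1 to 5 its median with CPM was 0.11, -0.16, -0.23, -0.29 and 0.05. Of the 18 genes, 16 were lower in cluster 0 than in cluster 4 and 13 lower than in cluster 2, while 12 were higher than in cluster 1. Quiescence genes were thus not highest in cluster 0.

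Transcripts of the translation machinery made up more of cluster 0. Of 79 cytosolic ribosome genes, 63 were higher in all 8 hashtags and 0 lower (median log2 ratio 0.17), and 9 of 13 mitochondrial DNA-encoded genes were higher and 0 lower (median 0.17). Cluster 1 was close to cluster 0 in both lists. Against it, 55 ribosome genes were higher and 24 lower in cluster 0 (median 0.04), and 8 mitochondrial genes higher and 5 lower (median 0.10). The mitochondrial list summed to 44800 CPM in cluster 1 and 44200 CPM in cluster 0. CPM is a share of all UMIs, so these ratios are relative to the other transcripts. The nuclear-retained RNA Malat1 averaged 29070 ± 1597 CPM in cluster 0 and 23980 ± 2549 CPM in the rest, higher in 8 of 8. Nuclear-retained RNAs did not share 1 direction: among 5 measured, Malat1 and Tug1 were higher and Neat1 and Mir142hg lower in all 8 hashtags (median -0.09). Of 14 hosts of small nucleolar RNAs, Snhg12, Eef1a1 and Rack1 were higher and Snhg15 lower. Of 24 galectin, S100, annexin and cytoskeleton genes, 17 were lower and 0 higher (median -0.52). Of 16 migration genes, 8 were lower, among them Cxcr4, Cxcr6, Ccr4 and Itga4, and Cd69 was higher. Heat shock had 8 of 19 lower and Fkbp4 higher (median -0.13), glycolysis 4 of 14 lower and 0 higher (median -0.19), and proliferation 3 of 12 lower and 1 higher (median -0.09). Complex I (4 of 37 lower, 2 higher) and complexes II to V (6 of 39 lower, 2 higher) did not exceed the shares over all genes, 16.3% lower and 7.85% higher. Mki67, a marker of dividing cells, was at 2.90 CPM in cluster 0 and 7.65 CPM in the rest. Of 4 measured interferon response genes, 0 were higher or lower in all 8 hashtags.

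For activation genes and secreted factors, the lower levels were those against clusters 2, 3 and 5. The median log2 ratio of activation genes in cluster 0 was 0.15 against cluster 1 and 0.03 against cluster 4, but -0.51 against cluster 2, -1.21 against cluster 3 and -0.97 against cluster 5. For secreted factors the medians were 0.20 and 0.16 against clusters 1 and 4, and between -0.72 and -0.65 against the others. Against cluster 1 the medians were -0.79 for 24 galectin, S100, annexin and cytoskeleton genes and 0.60 for 22 immediate early genes. Against cluster 4 they were -0.57 for 22 immediate early genes, -0.45 for 5 nuclear-retained RNAs and -0.40 for 19 heat shock genes. Actn2, which encodes an actinin, averaged 11.5 CPM in cluster 0 and was at 85.2 CPM in cluster 1, and Cd3g, a gene of the T cell receptor complex, averaged 54.8 CPM and was at 159 CPM in cluster 1.

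**Figure D3:**
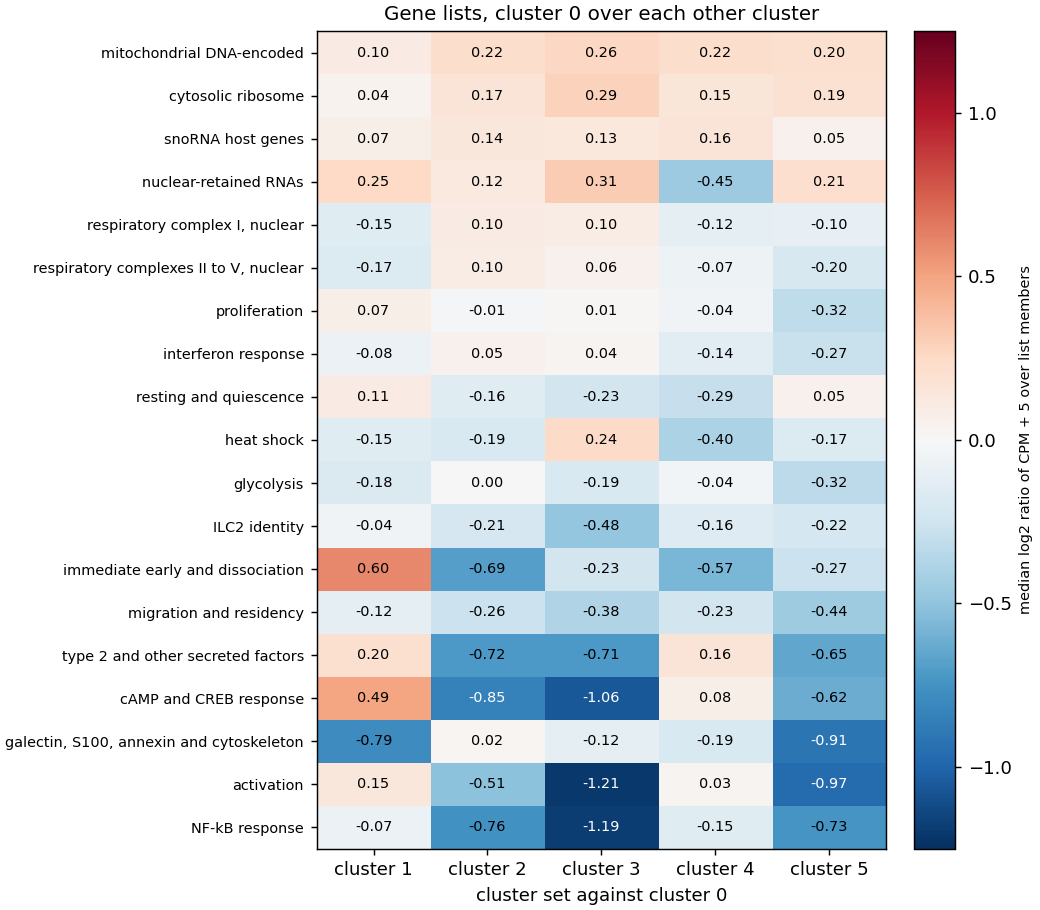
Median log2 ratio of CPM + 5 over the measured members of each gene list (rows), cluster 0 over each other cluster (columns), with red where cluster 0 was higher. Activation, NF-kB, cAMP and secreted factor lists are blue against clusters 2, 3 and 5, and lie between -0.15 and 0.49 against clusters 1 and 4.

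Several genes that were low in cluster 0 stood higher at its rim, again as a description. Il13 was at 53.0 CPM in the 1606 core cells and 115 CPM in the 314 edge cells, with the edge above the core in 7 of 8 hashtags. Gata3 was at 478 and 629 CPM (edge above core in 8 of 8), Csf2 at 487 and 772 CPM (7 of 8), Rel at 89.5 and 146 CPM (7 of 8) and S100a6 at 242 and 461 CPM (8 of 8). Il5 was at 88.4 CPM in core cells and 124 CPM in edge cells, with the edge above the core in 4 of 8. Gimap3 was at 331 CPM in core cells and 274 CPM in edge cells, above the core at the edge in 0 of 8. Fam122a was at 121 and 103 CPM (3 of 8), whereas Fbxl12 (68.4 and 69.5 CPM), Alkbh1 (99.8 and 95.3 CPM) and Snhg12 (151 and 148 CPM) were nearly level.

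Most marker lists of other cell types summed to similar or lower values in cluster 0 than in the rest. T cell markers summed to 1160 CPM in cluster 0 and 1120 CPM in the rest, of which the receptor constant genes Trbc1 and Trbc2 made up 503 and 504 CPM, while Cd3e was at 3.79 CPM and Cd3d at 2.61 CPM. NK cell and ILC1 markers summed to 327 and 301 CPM, B cell markers to 74.0 and 79.6 CPM, ILC3 markers to 16.1 and 25.9 CPM, macrophage markers to 2.30 and 3.27 CPM, neutrophil markers to 0.216 and 3.10 CPM, and dendritic cell markers to 5.36 and 14.8 CPM. Eosinophil, basophil and mast cell markers summed to 19.1 CPM in cluster 0 and 9.66 CPM in the rest, lung epithelium markers to 137 and 116 CPM, and endothelium markers to 17.5 and 25.3 CPM. No fibroblast marker on the list is in the count table used here. Mcpt8, Xcr1, C1qa and Mmp8 were at 0 in cluster 0. Erythroid markers summed to 40.3 CPM in cluster 0 and 94.4 CPM in the rest.

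The comparison of IL-33 plus dopamine with IL-33 asked which genes differed with dopamine while IL-33 was given. Within cluster 0, 3 of 7724 tested genes (0.0388%) passed an adjusted p of 0.05 (edgeR quasi-likelihood test with Benjamini-Hochberg adjustment), and all 3 were higher with dopamine. They were Il5, Odc1, which encodes ornithine decarboxylase, the rate-limiting enzyme of polyamine synthesis, and the processed transcript Gm43305. A total of 513 genes had an unadjusted p under 0.05, and DESeq2 called 0 genes. The values of the 2 groups did not overlap for 554 genes (7.17%) that were higher and 349 (4.52%) that were lower with dopamine.

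Il5 (chr11:53720794-53725106, plus strand, GRCm38) averaged 107 ± 6 CPM in dopamine hashtags and 65.6 ± 0.9 CPM in IL-33 hashtags (SD, n = 3 each), as listed above by hashtag. The dopamine values all lay above the IL-33 values and beside those of PBS, which averaged 105 CPM. The log2 fold change was 0.69 ± 0.13 (SE; edgeR adjusted p = 0.01909). Behind it stood 503 Il5 UMIs in dopamine cells and 236 in IL-33 cells. The share of cluster 0 cells with an Il5 UMI was 20.44% with dopamine and 17.48% with IL-33, or 11.96% and 10.27% after thinning, so the shares differed by less than the summed counts, and cells with 2 or more UMIs numbered 81 of 1130 with dopamine and 33 of 818 with IL-33. The adjusted p missed the threshold in DESeq2 (0.2096), among core cells alone (0.1596) and when hashtag 3, 4, 5 or 6 was left out (between 0.07202 and 0.2664), while the log2 fold change stayed between 0.62 and 0.83 over the settings tried. In the other clusters' cells Il5 averaged 861 CPM with dopamine and 554 CPM with IL-33, and the difference between the dopamine effects of cluster 0 and of the rest was 0.05 on the log2 scale (edgeR interaction test, adjusted p = 0.9827). Taken 1 cluster at a time, the log2 ratio of mean Il5 CPM with dopamine over IL-33 was 0.67 in cluster 0 and 0.12, -0.05, 0.18, -0.14 and 0.31 in clusters 1 to 5. The rest is a sum whose mix of clusters varied between hashtags, with Il5 between 51.5 CPM in cluster 4 and 2609 CPM in cluster 3 under dopamine, and the part of that mix in the summed Il5 ratio was not tested.

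Odc1 (chr12:17544794-17551505, plus strand, GRCm38) had 344, 376 and 376 CPM in dopamine hashtags 6, 7 and 8, against 237, 277 and 252 CPM in IL-33 hashtags 3, 4 and 5. These groups did not overlap, and PBS hashtags 1 and 2 lay between them at 307 and 292 CPM. The log2 fold change was 0.49 ± 0.09 (SE; edgeR adjusted p = 0.01909). It missed the threshold in DESeq2 (0.07387) and without hashtag 3, 4, 5, 7 or 8 (between 0.05048 and 0.2711). Single clusters gave log2 ratios of mean CPM between 0.30 in cluster 4 and 0.55 in cluster 5, with 0.51 in cluster 0.

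Gm43305 (chr14:54292443-54297456, minus strand, GRCm38) had 285, 545 and 424 CPM in dopamine hashtags 6, 7 and 8, against 259, 252 and 214 CPM in IL-33 hashtags 3, 4 and 5, a log2 fold change of 0.77 ± 0.14 (SE; edgeR adjusted p = 0.01909). The groups did not overlap, but hashtag 6 lay close to the IL-33 values. It was not called by DESeq2, with a minimum of 20 CPM (0.06909), in 1 fit over all 8 hashtags (0.1057) or without hashtag 3, 4, 5 or 7 (between 0.05048 and 0.2664). PBS hashtags 1 and 2 were at 660 and 350 CPM. With IL-33 plus dopamine over IL-33 the log2 ratio of mean CPM was 0.78 in cluster 0 and between 0.42 and 0.98 in clusters 1 to 5.

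The genes next in order did not pass. Nrp1, which encodes the co-receptor neuropilin-1, had 66.7, 61.2 and 58.5 CPM with dopamine and 40.6, 34.5 and 37.5 CPM with IL-33 (edgeR adjusted p = 0.1338). Neb, the gene of the muscle protein nebulin, had 38.0, 17.0 and 37.7 CPM with dopamine and 49.0, 66.4 and 59.6 CPM with IL-33 (edgeR adjusted p = 0.08813). Dipk2a and the sialyltransferase gene St8sia4 were non-overlapping and higher with log2 fold changes of 0.75 and 0.39. Ltb4r1, the leukotriene B4 receptor gene, Glul, which encodes glutamine synthetase, the histone gene Hist1h2bc, Xlr4a and the integrin gene Itgb3 were non-overlapping and lower, with log2 fold changes between -0.63 and -0.44. Il13, which lies near Il5 on chromosome 11, averaged 63.5 CPM with dopamine and 60.1 CPM with IL-33 (log2 fold change 0.04, edgeR adjusted p = 0.9805).

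None of the proposed marker genes of cluster 0 passed between IL-33 plus dopamine and IL-33. The log2 fold change with dopamine was 0.01 for Fam122a, 0.08 for Fbxl12, 0.29 for Alkbh1 and 0.11 for Snhg12, with edgeR adjusted p of 0.7116 or more for Fam122a, Alkbh1 and Snhg12. Gata3 averaged 543 CPM with dopamine and 508 CPM with IL-33, Areg 712 and 783 CPM, and Csf2 535 and 591 CPM, and none of these passed. Nr4a1, a cAMP-responsive nuclear receptor gene, averaged 1328 and 1153 CPM (edgeR adjusted p = 0.5724), and Crem, a cAMP-response modulator, 116 and 109 CPM. Of 19 tested secreted factors 1 passed (Il5), and of 20 activation genes 1 passed (Odc1). By edgeR, 0 of 19 NF-kB response genes passed (3 higher and 1 lower at an unadjusted p under 0.05). The same held for 0 of 17 cAMP and CREB response genes (4 higher and 2 lower at that unadjusted p). It also held for 0 of 79 cytosolic ribosome genes (15 lower and 0 higher) and 0 of 19 heat shock genes (7 lower and 0 higher). Over all 7724 tested genes, both directions together, 513 had an edgeR unadjusted p under 0.05. DESeq2 called none of any list. Of the ribosome genes, 77 of 79 had a negative log2 fold change (median -0.07, over all genes -0.0022), 71 with CPM in place of TMM, and the dopamine hashtags lay below the IL-33 hashtags without overlap in 31, against 4.52% of all genes. Of the heat shock genes, 17 of 19 had a negative log2 fold change (median -0.19), 16 with CPM. Over all genes 50.4% had a negative value, and 45.8% with CPM. The groups did not overlap for 2 lower and 1 higher of the 19, against 4.52% and 7.17% of all genes. The heat shock list summed to between 5810 and 6110 CPM with dopamine, within the 5450 to 7970 CPM of the IL-33 hashtags.

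**Figure D4:**
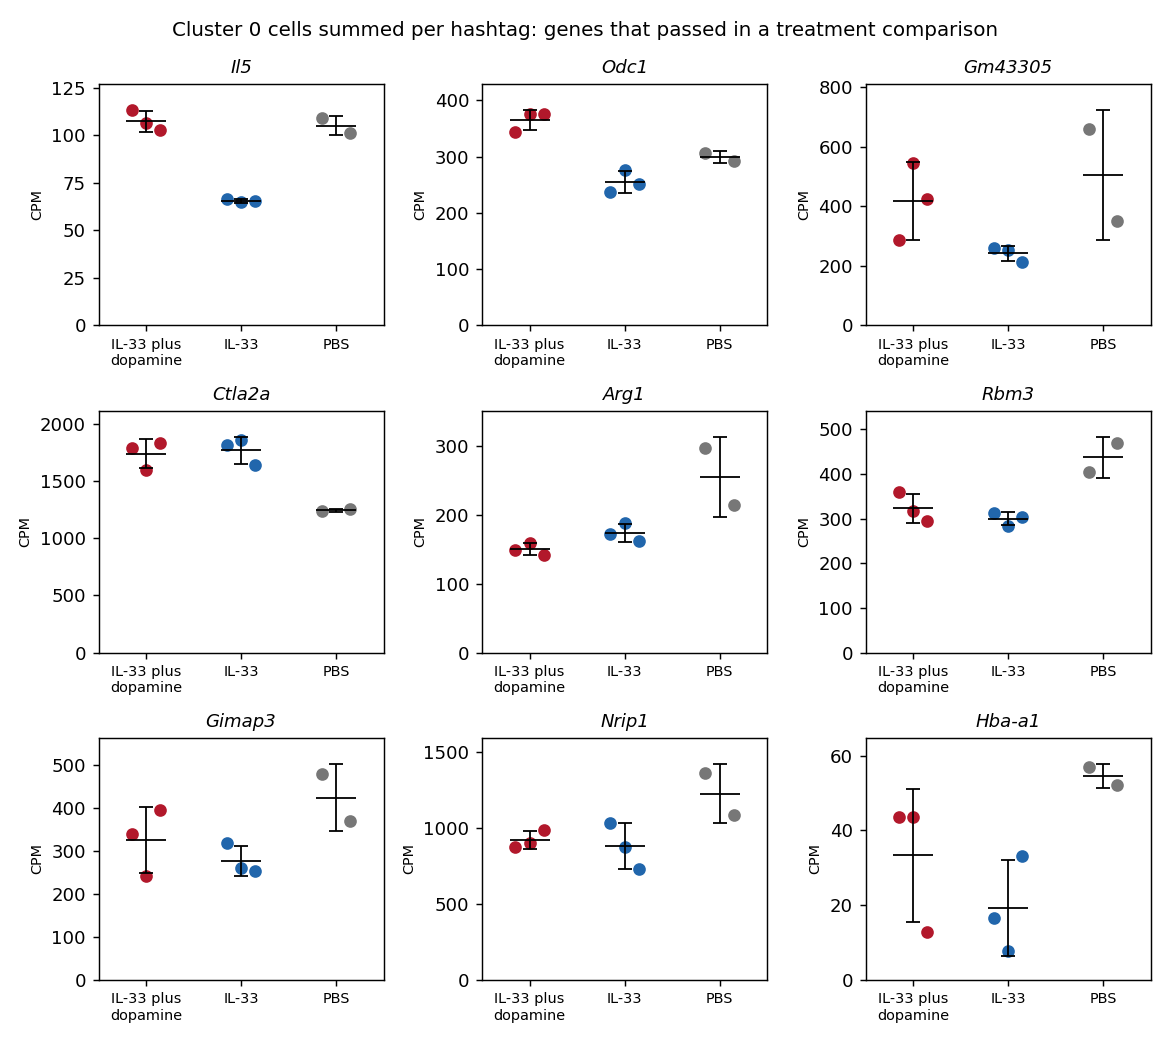
CPM (y axes, each starting at 0) of cluster 0 cells summed per hashtag for 9 genes that passed in a treatment comparison, by treatment (x axes), with a point per hashtag and the mean ± SD of 3, 3 and 2 hashtags. For Il5 the 3 IL-33 hashtags sit between 64.7 and 66.5, below all dopamine and PBS hashtags, and for Ctla2a the PBS hashtags, at 1234 and 1253, sit below all others.

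The comparison of IL-33 with PBS asked what IL-33 alone changed in cluster 0 cells. Of 7365 tested genes, 7 (0.095%) passed, 1 (0.0136%) higher and 6 (0.0815%) lower with IL-33 (edgeR), 490 had an unadjusted p under 0.05, and 983 genes (13.3%) were higher and 851 (11.6%) lower without overlap between the groups. Ctla2a, which encodes a cysteine protease inhibitor, rose: it had 1811, 1858 and 1636 CPM in IL-33 hashtags 3, 4 and 5, against 1234 and 1253 CPM in PBS hashtags 1 and 2. Its log2 fold change was 0.50 ± 0.07 (SE; edgeR adjusted p = 0.000244), and of the settings tried it missed the threshold without hashtag 4 (0.0689). Single clusters 2, 3 and 4 gave log2 ratios of mean CPM of 0.54, 0.34 and 0.32, cluster 1 gave 0.15, and cluster 5, where PBS hashtag 1 had 8 cells, gave -0.31.

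The genes that fell with IL-33 included Rbm3, a cold-inducible RNA-binding protein gene. Rbm3 had 312, 285 and 304 CPM in IL-33 hashtags and 406 and 470 CPM in PBS hashtags, a log2 fold change of -0.57 ± 0.11 (SE; edgeR adjusted p = 0.01205) that missed the threshold in DESeq2 (0.2214) and without hashtag 2, 3 or 4. Gimap3, one of the genes higher in cluster 0, had 318, 260 and 254 CPM in IL-33 hashtags and 480 and 369 CPM in PBS hashtags (log2 fold change -0.59, edgeR adjusted p = 0.03453). Nrip1, a nuclear receptor corepressor gene, had 1034, 878 and 731 CPM in IL-33 hashtags and 1365 and 1088 CPM in PBS hashtags (log2 fold change -0.47, edgeR adjusted p = 0.04895). The groups did not overlap for Rbm3, Gimap3 or Nrip1. DESeq2 called neither Gimap3 nor Nrip1, and both calls were also lost without hashtag 1, 4 or 5 and among core cells. The predicted genes Gm43305 and Gm47283 also fell, with 242 and 98.5 CPM on average with IL-33 and 505 and 184 CPM with PBS, and the values of Gm47283 overlapped between the groups.

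Hba-a1, the haemoglobin alpha gene, was the last of the 6. It had 16.6, 7.76 and 33.1 CPM in IL-33 hashtags and 56.9 and 52.3 CPM in PBS hashtags (log2 fold change -1.44, edgeR adjusted p = 0.04895). The groups did not overlap, and the call was lost in 9 of 12 settings, among them DESeq2 and the fits without hashtag 2, 3 or 4. It is the only member of the erythroid marker list with at least 20 CPM, so the sum of that list is not independent of it. The list summed to between 12.9 and 41.9 CPM in cluster 0 cells of IL-33 hashtags and between 58.4 and 71.7 CPM in those of PBS hashtags. The part of erythroid RNA in the other differences was not tested. By edgeR, 0 of 19 secreted factors, 0 of 20 activation genes, 0 of 19 NF-kB response genes and 0 of 17 cAMP response genes passed. In that order, 4 higher and 4 lower, 3 and 1, 2 and 1, and 2 and 2 of them had an unadjusted p under 0.05. Over all 7365 tested genes, both directions together, 490 had such an unadjusted p. DESeq2 called 1 gene, Ctla2a. Il5 averaged 65.6 CPM with IL-33 and 105 CPM with PBS (edgeR adjusted p = 0.1986), Areg 783 and 641 CPM (edgeR adjusted p = 0.4821), and Csf2 591 and 525 CPM. Fam122a, Fbxl12, Alkbh1 and Snhg12 had log2 fold changes between -0.09 and 0.01.

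IL-33 plus dopamine was also set against PBS, a comparison that shares its hashtags with the others. Of 8015 tested genes, 2 (0.025%) passed by edgeR, 1 higher and 1 lower (0.0125% each), 499 had an unadjusted p under 0.05, and 1246 (15.5%) were higher and 858 (10.7%) lower without overlap. Ctla2a rose, with 1785, 1595 and 1830 CPM in dopamine hashtags 6, 7 and 8, against 1234 and 1253 CPM in PBS hashtags (log2 fold change 0.45 ± 0.08 SE, edgeR adjusted p = 0.03171). Arg1 (chr10:24915221-24927484, minus strand, GRCm38) fell, with 150, 159 and 141 CPM in dopamine hashtags, against 297 and 214 CPM in PBS hashtags (log2 fold change -0.75 ± 0.14 SE, edgeR adjusted p = 0.03171). Arg1 with IL-33 alone stood at 173, 188 and 162 CPM, between the other groups. Without hashtag 1 the edgeR adjusted p was 0.4271 for Ctla2a and 0.4381 for Arg1, and DESeq2 gave 0.06374 for each. The call of Ctla2a was also lost without hashtag 2, 6 or 8, and that of Arg1 without hashtag 6, 7 or 8. Il5 averaged 107 CPM with IL-33 plus dopamine and 105 CPM with PBS (log2 fold change 0.01, edgeR adjusted p = 0.995). The transcription factor genes Egr3, Tox and Foxn3 and the antiviral gene Samd9l were higher without overlap, and Serpina3g, Cxcl2 and Tnfsf11 lower, but none of these passed.

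Other clusters gave between 0 and 19 passing genes for IL-33 plus dopamine against IL-33, between 4 and 24 for IL-33 against PBS and between 0 and 6 for IL-33 plus dopamine against PBS by the same edgeR test, with hashtags as small as 51671 UMIs. These counts depend on the cells available and were not compared. Whether a treatment effect was of another size in cluster 0 than elsewhere was tested as an interaction, with the summed cluster 0 cells and the summed other cells of each hashtag in 1 fit and the hashtag as a block.

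For dopamine under IL-33 the effect differed between cluster 0 and the rest for 12 of 9805 genes (0.122%), 4 with a higher (0.0408%) and 8 with a lower value in cluster 0 (0.0816%), and 702 genes had an unadjusted p under 0.05. Without hashtag 3, 4, 6, 7 or 8 the count was 0, 6, 29, 22 or 5. The 4 were S100a6, S100a4, Vim and Cd52, which encode calcium-binding proteins, the intermediate filament vimentin and a surface glycoprotein. S100a6 averaged 275 CPM with dopamine and 271 CPM with IL-33 in cluster 0, against 601 and 889 CPM in the rest (difference of log2 effects 0.56 ± 0.10 SE, edgeR adjusted p = 0.006958). Vim averaged 405 and 409 CPM in cluster 0, against 634 and 906 CPM in the rest. S100a4 averaged 913 and 867 CPM in cluster 0, against 1242 and 1545 CPM in the rest. Cd52 averaged 948 and 917 CPM in cluster 0, against 1427 and 1858 CPM in the rest. For these 4 genes the dopamine log2 ratio of mean CPM in cluster 0 lay between -0.01 and 0.07.

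Among the 8 with a lower value, Tnfrsf18, which encodes the co-stimulatory receptor GITR, averaged 459 CPM with dopamine and 578 CPM with IL-33 in cluster 0, against 570 and 475 CPM in the rest (difference -0.62, edgeR adjusted p = 0.006958). Hes1, a Notch target gene, averaged 244 and 305 CPM in cluster 0, against 399 and 333 CPM in the rest. Ramp3, a subunit of receptors for the calcitonin peptide family, averaged 231 and 201 CPM in cluster 0, against 503 and 271 CPM in the rest. Calca, which encodes calcitonin gene-related peptide, averaged 860 and 1072 CPM in cluster 0, against 1090 and 946 CPM in the rest. Irs2, an insulin receptor substrate gene, and Hsp90aa1, a chaperone gene, averaged 243 and 255 CPM and 222 and 318 CPM in cluster 0, against 350 and 258 CPM and 407 and 434 CPM in the rest. The other 2 of the 8 were Ern1 and Gm20186.

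The cells summed as the rest were not the same mix in every hashtag. Cluster 1 made up 15.73%, 21.64% and 11.66% of dopamine hashtags 6, 7 and 8, 26.2%, 27.84% and 27.24% of IL-33 hashtags 3, 4 and 5, and 8.36% and 23.26% of PBS hashtags 1 and 2. Cluster 5 made up 6.71%, 14.2% and 1.76% of dopamine hashtags, 22.02%, 8.88% and 11.74% of IL-33 hashtags, and 2.57% and 3.08% of PBS hashtags. With a single cluster in place of the rest, the dopamine test called 1 gene against cluster 1, 3 against cluster 2, 1 against cluster 3, 6 against cluster 4 and 18 against cluster 5. For S100a6 the dopamine log2 ratio of mean CPM was 0.02 in cluster 0 and -0.13, 0.02, -0.36, -0.02 and -0.38 in clusters 1 to 5, smaller in size in each than in their sum.

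**Figure D5:**
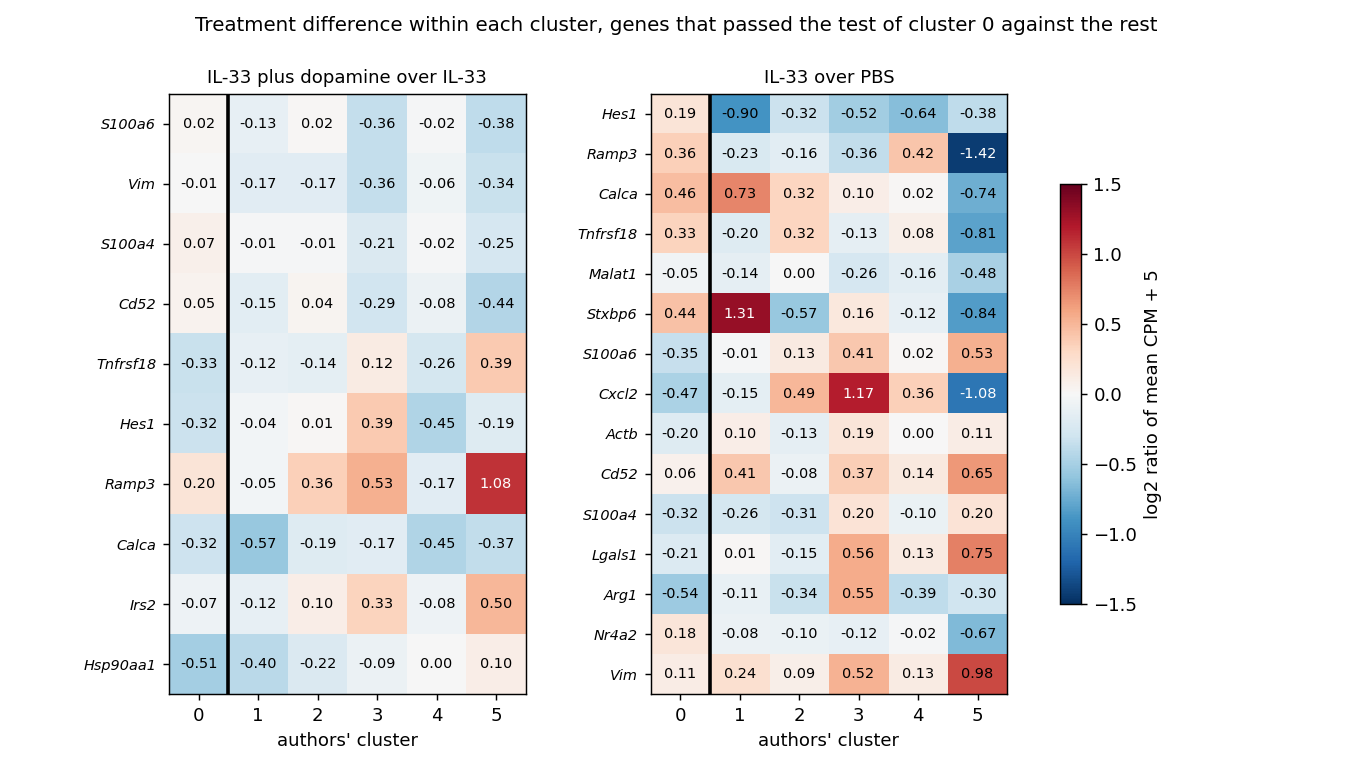
Log2 ratio of mean CPM + 5 of IL-33 plus dopamine over IL-33 (left) and of IL-33 over PBS (right) within each of the authors' clusters (columns), for the named genes (rows) that passed the test of cluster 0 against the rest and red where the treatment first named was higher. S100a6 with dopamine is at 0.02 in cluster 0 and between -0.38 and 0.02 in clusters 1 to 5, and cluster 5 of PBS hashtag 1 had 8 cells.

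For IL-33 against PBS the effect in cluster 0 differed for 22 of 8190 genes (0.269%), 11 in each direction (0.134% each), and 679 had an unadjusted p under 0.05. The IL-33 hashtags are shared with the dopamine test. Without hashtag 1, 2 or 3 the count was 7, 40 or 9. Hes1 averaged 305 CPM with IL-33 and 267 CPM with PBS in cluster 0, against 333 and 583 CPM in the rest (difference of log2 effects 0.96 ± 0.14 SE, edgeR adjusted p = 0.0006405). Hes1 was lower with IL-33 in each of clusters 1 to 5, with log2 ratios of mean CPM between -0.90 and -0.32, where cluster 0 had 0.19. Ramp3 averaged 201 and 156 CPM in cluster 0, against 271 and 475 CPM in the rest (1.13 ± 0.17, edgeR adjusted p = 0.0008596). Calca averaged 1072 and 776 CPM in cluster 0, against 946 and 1203 CPM in the rest (0.79, edgeR adjusted p = 0.003899). S100a6 averaged 271 and 345 CPM in cluster 0, against 889 and 552 CPM in the rest (-0.97 ± 0.13, edgeR adjusted p = 0.0002773). Cxcl2, a neutrophil chemokine gene, averaged 864 and 1199 CPM in cluster 0, against 1491 and 1291 CPM in the rest (-0.62, edgeR adjusted p = 0.001476). Lgals1, which encodes galectin-1, averaged 207 and 240 CPM in cluster 0, against 760 and 445 CPM in the rest. Arg1, the arginase gene of ILC2s, averaged 174 and 255 CPM in cluster 0, against 325 and 274 CPM in the rest (-0.73 ± 0.15, edgeR adjusted p = 0.02267). Nr4a2, a nuclear receptor gene on the cAMP list, averaged 365 and 322 CPM in cluster 0, against 395 and 539 CPM in the rest (0.60, edgeR adjusted p = 0.04757). The value was also higher in cluster 0 for Tnfrsf18, Malat1 and Stxbp6 and lower for Actb, Cd52, S100a4 and Vim (Vim was named after its value was seen), and against single clusters 1, 2, 3 and 4 the test called 10, 2, 7 and 4 genes.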

How the data were processed

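Lung ILC2s of 8 hashtags were sequenced in 1 droplet pool. The authors deposited whole-number UMI counts for 15083 genes in 9076 cells, and a cell table with hashtag, treatment, cluster and the percent of UMIs in mitochondrial genes, computed by the authors (at most 7.50%). The submitters' processing notes name Cell Ranger 6.1.1, Seurat 4.0.2 and build mm10. Any removal of doublets by the authors is not stated in the labels, and none was done here. No barcode occurred more than once, and summed counts equalled the cell table's totals. Bulk libraries of the same series were not used here.

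Counts were summed over cells per hashtag (cells are not replicates) and tested with edgeR 4.0.16 in R 4.3.3 (TMM, filterByExpr, quasi-likelihood, Benjamini-Hochberg over all tested genes), with DESeq2 1.42.0 as an alternative. Interaction fits had the hashtag as a block, since both sums came from the same hashtag. Levels are CPM, and ratios of clusters use CPM + 5. The depth in cluster 0 ran between 404400 and 1725530 UMIs per hashtag. A median per hashtag was compared by exact permutation (two-sided), whose smallest p is 0.1 for 3 against 3 hashtags and 0.2 for 3 against 2. Binomial intervals cover counting error only. Scripts were tested on simulated data.

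The cluster, its proposed markers and all gene lists were chosen with earlier results of these data known. Named genes are the proposed markers, the 15 largest ratios per direction (mean CPM of at least 50, same sign in all 8 hashtags), up to 12 passing genes per direction and treatment comparison (6 per interaction), filled to 6 with non-overlapping genes, up to 4 passing members per list, and 17 fixed genes. A gene that this rule names is not reported here. Gene positions are from GENCODE M21 on GRCm38, and promoter windows from RefSeq. Alternatives covered the tool, the filters, the scaling, the cells used, a single joint fit, each hashtag left out and, chosen after seeing the data, core cells and single clusters as the counterpart.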

Additional observations from a re-analysis of the deposited data

Results flagged for a closer look

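The treatment effect differed between cluster 0 and the other clusters, by the edgeR interaction test, for the 25 results listed here as the log2 effect in cluster 0 minus that in the rest. The counterpart is a sum of clusters whose mix varied between hashtags, and the part of that mix in the differences was not tested.

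With IL-33 plus dopamine against IL-33, the difference was 0.56 for S100a6, 0.49 for Vim, 0.43 for Cd52 and 0.37 for S100a4. It was -0.70 for Ramp3, -0.62 for Tnfrsf18 and -0.62 for Hes1, -0.53 for Calca and -0.53 for Irs2, and -0.45 for Hsp90aa1. In cluster 0 itself these genes did not pass between IL-33 plus dopamine and IL-33, where Il5, Odc1 and Gm43305 did.

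With IL-33 against PBS, the difference was 1.13 for Ramp3, 0.96 for Hes1, 0.89 for Stxbp6, 0.79 for Calca, 0.63 for Tnfrsf18, 0.60 for Nr4a2 and 0.23 for Malat1. It was -0.97 for S100a6, -0.89 for Lgals1, -0.73 for Arg1, -0.62 for Cxcl2, -0.58 for Vim, -0.52 for Cd52, -0.48 for S100a4 and -0.43 for Actb. Both tests use the same IL-33 hashtags.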

How the results depend on the processing

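Counts of passing genes moved with the settings. For IL-33 plus dopamine against IL-33 in cluster 0 the count was 3, with DESeq2 0, with no filter on low counts 19, and 0 to 10 with 1 hashtag left out (0 without hashtag 3 or 4, 10 without hashtag 8). For IL-33 against PBS the count was 7, with DESeq2 1, without a filter 14, with a minimum of 20 CPM 3, in 1 fit of all 8 hashtags 4, and 0 to 18 with 1 hashtag left out (17, 18, 4 and 0 without hashtags 1 to 4). For IL-33 plus dopamine against PBS it was 2, with DESeq2 0, without a filter 17, with 20 CPM 0, without TMM 1, and 0 to 4 with 1 hashtag left out (0 without hashtag 1, 6 or 8, 1 without hashtag 7 and 4 without hashtag 2). The dopamine interaction gave 12, without a filter 64, with 20 CPM 4, without TMM 20, with cells between the 10th and 90th percentile of UMIs 22, against single clusters 1, 2, 3 and 4 counts of 1, 3, 1 and 6, and 0 to 29 with 1 hashtag left out. The IL-33 interaction gave 22, without a filter 57, between the percentiles 7, against single clusters 1 to 4 counts of 10, 2, 7 and 4, and 7 to 40 with 1 hashtag left out. Without the replicate block (hashtag) the interactions gave 0 and 0 genes. With the lower minimum fold tried, 9 genes were higher and 204 lower in cluster 0. The difference in median UMIs per cell, -154.5 for IL-33 plus dopamine minus IL-33, ranged over -327 to 37.5, the sign turning without hashtag 8.

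Single clusters as counterpart turned the sign of some differences. For dopamine these were S100a6 (-0.0024, cluster 2), Hes1 (0.13, cluster 4), Ramp3 (0.21 and 0.44, clusters 1 and 4), Calca (0.23, 0.12 and 0.025, clusters 1, 4 and 5) and Irs2 (0.06 and 0.016, clusters 1 and 4). For IL-33 these were Tnfrsf18 (-0.015), Malat1 (-0.086) and Cd52 (0.11) against cluster 2, Vim (0.068 and 0.071) against clusters 2 and 4 and Stxbp6 (-0.93) against cluster 1. The cause of these changes was not tested. Of the other values of named genes under an alternative, 574 kept direction and stayed on the same side of the threshold. These 574 include genes that did not pass in the main fit and again did not pass, so they do not count kept calls. A further 251, all of genes that passed in the main fit, kept direction and lost the call, and 32 gained it. Hashtag 1, with 101 cells, and low genes such as Il5, with 236 UMIs in IL-33 cells, limit the precision.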
